A study of Mus musculus with 8 samples.

Results

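The chemokine receptor genes Ccr9, Ccr7, Cxcr4, Ccr1, Ccr2, Cx3cr1, Cxcr2, Cxcr3 and Cxcr6 were followed in RNA and open chromatin of cultured mouse T-cell progenitors. All 9 were taken by symbol and found among the 24538 gene IDs of the expression files. Their surroundings, each gene span plus 50 kb either side, held 168 of the 134830 open regions of the ATAC lists. The series holds 8 libraries, 4 of RNA-seq and 4 of ATAC-seq (a transposase assay of open chromatin), with 2 control and 2 knockout libraries for each assay. Both groups began as LSK cells, the stem and progenitor fraction of bone marrow, from mice carrying the tamoxifen-inducible recombinase CreER. In the control group the mice were CreER+ WT. In the knockout group they were CreER+ with Tcf7-floxed and Lef1-floxed alleles, which encode the transcription factors TCF1 and LEF1. Cells of both groups were cultured on OP9-DL1, a stromal monolayer that presents the Notch ligand DLL1, received 4-OH tamoxifen from day 3 to day 5, and were sorted on day 7 as lineage-negative, CD4-negative, CD8-negative, CD44-high, CD25-negative, c-Kit-positive DN1 cells. The labels give neither the promoter that drives CreER nor the age of the mice. Nothing in the labels says that replicates came from separate animals or cultures, so p-values measure the spread between these libraries, which may be technical.

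Chemokine receptors are G-protein-coupled receptors that turn a gradient of secreted chemokine into directed movement, chiefly through the inhibitory G protein Gi. Entry of blood-borne progenitors into the adult thymus uses CCR9, whose ligand is CCL25, and CCR7, whose ligands are CCL19 and CCL21, while CXCR4 and its ligand CXCL12 hold progenitors in the marrow and act again inside the thymic cortex. CCR1, CCR2, CX3CR1 and CXCR2 are best known from myeloid cells, and CXCR3 and CXCR6 from effector T cells, NK cells and innate lymphoid cells. The question addressed by the series is what TCF1 and LEF1 do when T-cell fate begins, and here it is put to receptors that mark routes to the thymus and to other lineages.

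The deleted genes and the sort were examined first. Tcf7 stood at 518.5 and 510 TPM (transcripts per 1000000, a length-corrected level) in control and at 13.2 and 12.4 TPM in knockout. Lef1 stood between 1.099 and 1.66 TPM in all 4 libraries, and its level therefore does not check its deletion. Of the genes behind the sort, Kit averaged 244 TPM in control against 157 TPM in knockout, Cd44 averaged 101.5 against 104 TPM, and Cd4 and Cd8b1 were under 1 TPM in all 4 libraries. Il2ra, which encodes the CD25 that was gated out, averaged 134.5 TPM in control against 0.525 TPM in knockout. Over all 13228 tested genes, 14.7% fell and 25.2% rose (limma, adjusted p under 0.05), and the counts of marker genes stand beside these shares. In lists of marker genes, all 10 T-lineage genes fell, with a summed level of 619 to 624 TPM in control and 83.0 to 86.4 TPM in knockout. Of 10 neutrophil genes 6 rose and 4 did not pass, with sums of 1885 to 1887 and 3491 to 3621 TPM. Of 10 mast cell and basophil genes 9 rose and 1 fell (234 to 241 and 500 to 503 TPM), and of 10 stromal genes 8 rose, 1 fell and 1 did not pass (729 to 756 and 1334 to 1605 TPM). The stromal gene that fell, Thy1, is also on the T-lineage list and is counted in both. A difference in a receptor can thus come from fewer cells of a type or from less RNA per cell, which cannot be told apart in these bulk libraries.

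Receptor RNA spanned a wide range of levels. Cxcr4 and Ccr2 were by far the most abundant of the 9, at 55.7 ± 6.0 and 51.2 ± 1.9 TPM in control (SD, n = 2), and their control ranges overlapped. Cxcr6 (3.82 ± 0.055 TPM), Cx3cr1 (3.595 ± 0.11), Ccr7 (3.15 ± 0.22), Cxcr2 (3.05 ± 0.28) and Ccr1 (2.72 ± 0.22) followed within a narrow band. In that band Ccr7 overlapped with Cxcr2, and Cxcr2 with Ccr1. Ccr9 came next at 1.14 ± 0.16 TPM, and Cxcr3 was lowest at 0.269 ± 0.24 TPM. In knockout, Cxcr4 and Ccr2 stayed on top and no longer overlapped (43.3 to 45.5 against 37.9 to 40.8 TPM), and Cxcr2 and Cx3cr1, at 4.80 ± 1.1 and 4.68 ± 0.42 TPM, had the next highest means.

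**Figure D1:**
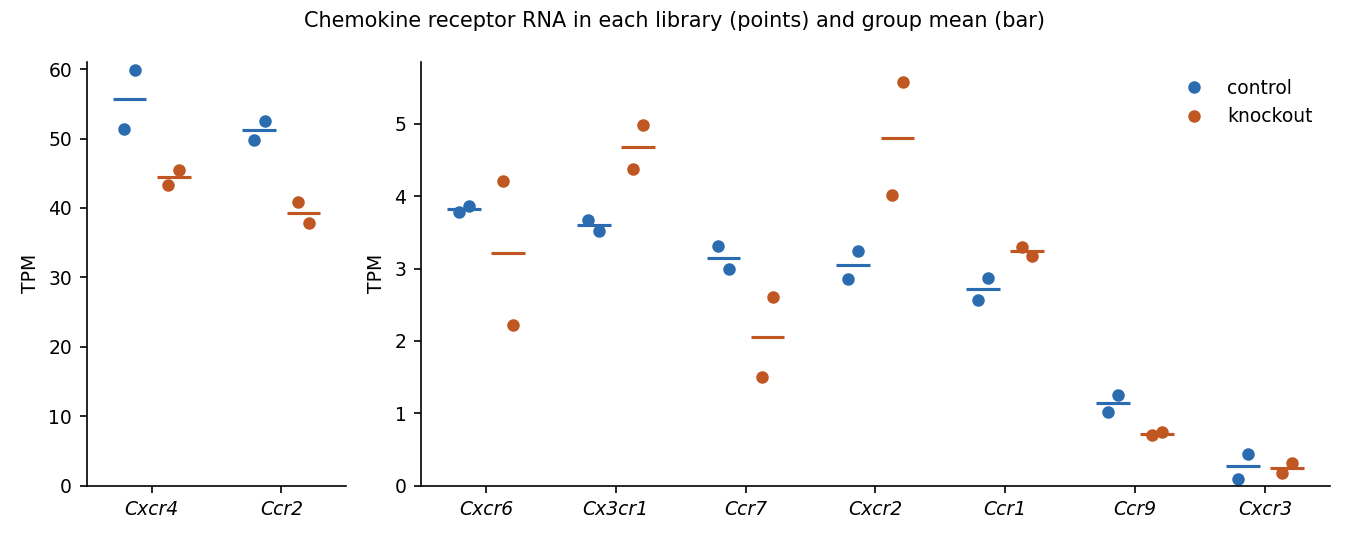
RNA level (TPM, vertical axes starting at 0) of the 9 receptor genes in each RNA library, with control in blue, knockout in orange and a bar at each group mean of 2 libraries. Cxcr4 and Ccr2 stand near 40 to 60 TPM on their own axis, and the other 7 genes lie under 6 TPM.

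Of the 9 receptors, 7 passed the filter of a mean of at least 1 TPM and were tested with limma, and Ccr9 and Cxcr3 lay below it. Cxcr4 and Ccr2 fell in knockout, and the other 5 did not pass (limma with Benjamini-Hochberg adjustment over all 13228 tested genes, adjusted p under 0.05). Across all tested genes 39.8% were called, 14.7% lower and 25.2% higher. Lower calls were 36.8% of these calls, against 46.8% under quantile normalization and 48.1% under scaling by median ratios, and in both fits Cxcr4 and Ccr2 were again called lower. No receptor was called higher, and 0 reached an unadjusted p under 0.05 in that direction (limma). The groups did not overlap in 6 of the 7 tested receptors, 3 lower and 3 higher in knockout, where 29.0% of all tested genes were lower and 44.4% higher without overlap. The median change of the 7 was −0.23 on the log2(TPM + 1) scale, against 0.09 over all tested genes, and the median size of change was 0.32 against 0.33. With 7 genes, these counts are a description and not a test of the receptors as a group.

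**Figure D2:**
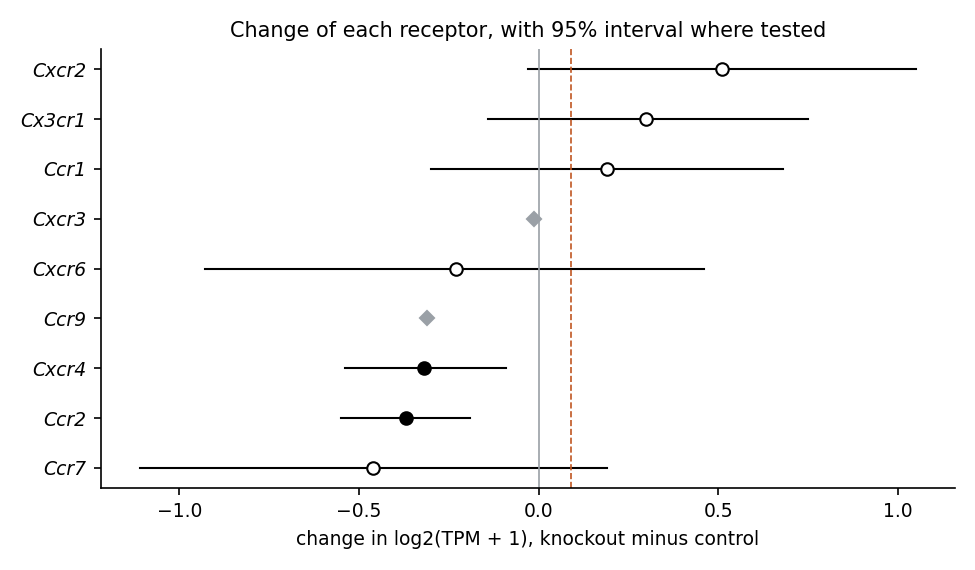
Change of each receptor gene in log2(TPM + 1), knockout minus control, with the 95% interval of the limma fit for the 7 tested genes; filled circles passed the test, open circles did not, and grey diamonds are the untested Ccr9 and Cxcr3. The intervals of Ccr2 and Cxcr4 lie below 0, the other 5 intervals include 0, and the dashed line marks the median change of all tested genes (0.09).

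Of the receptors that act in the marrow or the thymus, Cxcr4 (chromosome 1, 128588199 to 128592299, mm10, minus strand) stood at 51.4 and 59.9 TPM in control and at 43.3 and 45.5 TPM in knockout. Both knockout libraries lay below both controls, at 79.8% of the control mean. The change was −0.32 on the log2(TPM + 1) scale (SE 0.091, limma adjusted p = 0.0415, 95% interval −0.54 to −0.09). The call did not hold without control replicate 2 (limma adjusted p = 0.144), without knockout replicate 1 (0.155) or without knockout replicate 2 (0.0947), nor without the filter on low values (0.0720) or without the intensity trend (0.0996), so over 12 alternatives the adjusted p ran from 0.0239 to 0.155. The direction was downward in every one of them.

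Ccr7 (chromosome 11, 99144199 to 99155077, minus strand), the receptor for CCL19 and CCL21, was listed at 3.31 and 3.00 TPM in control and 1.503 and 2.61 TPM in knockout. The groups did not overlap, yet the knockout libraries differed from each other by more than the lower control differed from the higher knockout value. The change of −0.46 did not pass (SE 0.26, limma adjusted p = 0.207), and its interval ran from −1.11 to 0.19. It was −0.20 without knockout replicate 1 and −0.73 without knockout replicate 2. Ccr9 (chromosome 9, 123767211 to 123783457, plus strand), the receptor for the thymic chemokine CCL25, was listed at 1.02 and 1.249 TPM in control and 0.697 and 0.743 TPM in knockout. Both knockout values were below both controls, at 63.4% of the control mean. The difference of −0.31 on the log2(TPM + 1) scale has no test in the fit on filtered genes. When every gene with a value was kept, it did not pass (limma adjusted p = 0.376). Both receptors are also carried by dendritic cells. Of 9 dendritic cell markers above the filter 4 fell, 1 rose and 4 missed the threshold, where 14.7% of all tested genes fell and 25.2% rose. The sums were 505 to 514 TPM in control and 352 to 393 TPM in knockout, and Cd74, H2-Aa and H2-Ab1 made up most of them. The falls were those 3 genes and Itgax, and the rise was Flt3. Bst2, Zbtb46, Batf3 and Tcf4 did not pass. Siglech, below the filter, was listed at 0.441 and 0.515 TPM in control and at 0.624 and 1.05 TPM in knockout. The part of these markers in the lower Ccr7 and Ccr9 values was not tested. The span of Ccr9 overlaps the non-coding gene Gm17021 in RefSeq, and since no source used here states a strand setting, reads of the pair cannot be told apart. The same holds for Cx3cr1 with Gm33858 and for Cxcr6, which lies inside Fyco1 on the other strand.

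Of the receptors known from myeloid cells, Ccr2 (chromosome 9, 124102183 to 124109140, plus strand), which brings monocytes out of the marrow and is also carried by early lymphoid progenitors, stood at 49.9 and 52.5 TPM in control and at 40.8 and 37.9 TPM in knockout. The groups did not overlap and the knockout mean was 76.9% of control. The change was −0.37 (SE 0.072, limma adjusted p = 0.0124, 95% interval −0.55 to −0.19). It lost its call without control replicate 2 (limma adjusted p = 0.0726) and without knockout replicate 2 (0.0545), and over 12 alternatives the adjusted p ran from 0.00612 to 0.0726. Monocyte and macrophage markers stood beside it as follows. Among 9 such genes above the filter, 2 fell, 1 rose and 6 missed the threshold, where 14.7% of all tested genes fell and 25.2% rose. The sums were 333 to 358 TPM in control and 362 to 381 TPM in knockout, and the defining receptor Fcgr1 was under 1 TPM in all 4 libraries. The genes that fell were F13a1 and Irf8, and the one that rose was Ms4a3, a gene of granulocyte and monocyte precursors. Without Ms4a3 the sums were 344 and 321 TPM in control and 294 and 322.5 TPM in knockout. The part of these markers in the lower Ccr2 values was not tested.

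Cxcr2 (chromosome 1, 74153994 to 74161246, plus strand), the neutrophil receptor for CXCL1, CXCL2 and CXCL5, was listed at 2.85 and 3.24 TPM in control and 4.02 and 5.58 TPM in knockout. Both knockout libraries were above both controls, but they differed widely from each other. The change of 0.51 did not pass (SE 0.21, limma adjusted p = 0.115, interval −0.03 to 1.05). The 6 of 10 neutrophil markers that rose beside it were Mpo, Prtn3, Ctsg, Elane, S100a9 and Csf3r. Mpo, the largest term of the neutrophil sum, averaged 980 TPM in control and 2226 TPM in knockout. The other 4 markers, S100a8, Ltf, Camp and Ngp, did not pass. The part of these markers in the Cxcr2 value was not tested. Cx3cr1 (chromosome 9, 120048683 to 120068296, minus strand), the fractalkine receptor of monocytes and macrophages, was listed at 3.67 and 3.52 TPM in control and 4.38 and 4.98 TPM in knockout, a change of 0.30 that did not pass (SE 0.18, limma adjusted p = 0.222). Ccr1 (chromosome 9, 123962126 to 123968692, minus strand), a receptor for CCL3 and CCL5, was listed at 2.56 and 2.87 TPM in control and 3.30 and 3.17 TPM in knockout, a change of 0.19 (SE 0.19, limma adjusted p = 0.470). For these 3 genes both knockout values exceeded both control values, and the intervals of Cx3cr1 (−0.14 to 0.75) and Ccr1 (−0.30 to 0.68) leave room for changes in both directions. Ccr1 has a neighbouring copy, Ccr1l1, which was listed at 0.0992 to 0.970 TPM, and reads could have been split between such copies.

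The receptors of effector and innate lymphocytes showed no separation. Cxcr6 (chromosome 9, 123806477 to 123811754, plus strand), the receptor for CXCL16, was listed at 3.78 and 3.86 TPM in control and at 4.21 and 2.23 TPM in knockout. One knockout library lay above and one below both controls, so the groups overlapped, and the change of −0.23 did not pass (SE 0.28, limma adjusted p = 0.535). Its sign turned to 0.11 without knockout replicate 2. The surrounding gene Fyco1, an adaptor of autophagosome transport, was more abundant at 26.0 and 19.8 TPM in control and 19.75 TPM in both knockout libraries, and did not pass (limma adjusted p = 0.333). Cxcr3 (chromosome X, 101731535 to 101734147, minus strand), the receptor for CXCL9, CXCL10 and CXCL11, was listed at 0.0973 and 0.440 TPM in control and 0.181 and 0.315 TPM in knockout, so the control values enclosed the knockout values. Of 6 tested NK and innate lymphoid markers 4 fell and 2 did not pass, where 14.7% of all tested genes fell and 25.2% rose. Of the untested markers, the defining genes Klrb1c, Eomes and Tbx21 were under 1 TPM in all 4 libraries. Ncr1, also below the filter, was listed at 0.757 and 0.544 TPM in control and at 0.880 and 1.12 TPM in knockout. The sums of the list were 706 to 722 TPM in control and 362 to 366 TPM in knockout. Most of the difference between these sums lay in Gzmb, which averaged 515 TPM in control and 195 TPM in knockout. Id2, Rora and Il7r also fell, and Nkg7 and Klrd1 were the 2 that did not pass.

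The genes whose profile was most like that of the called receptors were found by Euclidean distance of log2(TPM + 1), less each gene's own mean, over the 4 RNA libraries. For Cxcr4 they were Mppe1 (distance 0.027), Sbno2 (0.047) and 1810043G02Rik (0.047), with changes of −0.32, −0.34 and −0.30. For Ccr2 they were Slc9a7 (0.012), Mapk8ip3 (0.020) and Mex3a (0.020), with changes of −0.38, −0.38 and −0.36.

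Open chromatin around the receptors was compared by which of the 4 peak lists held a peak in a merged region. A region is called control-only where both control lists and no knockout list had a peak, and knockout-only the other way round. Of the 168 regions, 111 had a peak in all 4 lists, 12 were control-only (7.14%), 11 were knockout-only (6.55%) and 34 had other combinations. Across the genome 4.79% of regions were control-only and 6.63% knockout-only. Peak lists give no depth, which is therefore unknown, so no test was made between libraries, and a missing peak says that none was called there. Of the 9 windows 8 held a control-only region and 8 a knockout-only region, against 36.2% and 47.6% of the windows of all genes. The receptor windows held 14 to 26 regions each, where the median gene window held 13, and 12 regions were counted for both Ccr9 and Cxcr6, whose windows overlap. Within 10 kb of a receptor span lay 52 regions. One of these, at Ccr9, was control-only (1.92%), and 5 were knockout-only (9.62%), where the same distance around all gene spans held 4.43% and 6.40%. Of the 5, Ccr1 had a pair and Ccr7, Cxcr2 and Cxcr6 had 1 each.

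**Figure D3:**
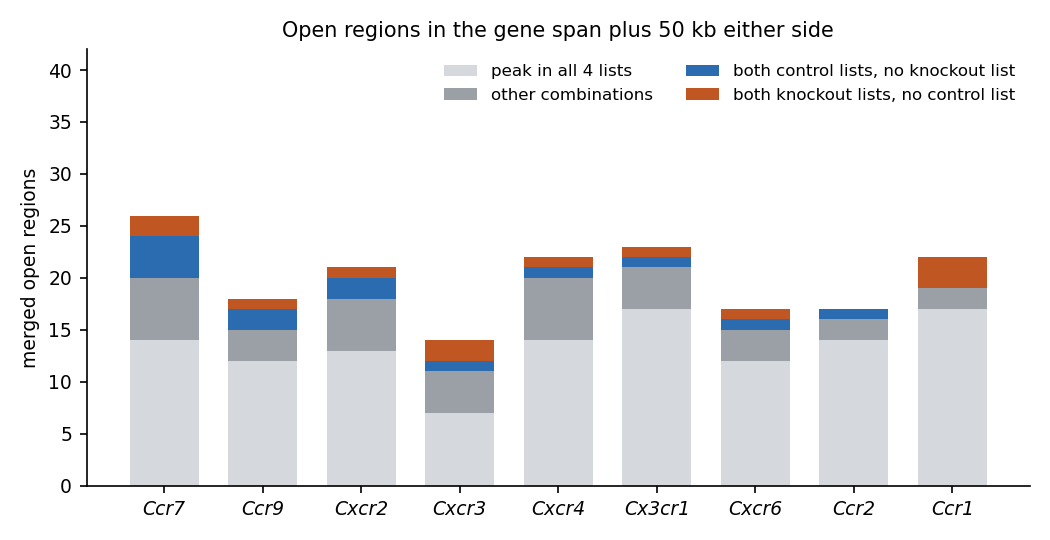
Number of merged open regions in the span of each receptor gene plus 50 kb either side, stacked by which of the 4 ATAC lists held a peak. Ccr7 has 4 control-only regions (blue), Ccr1 has 3 knockout-only regions (orange) and no control-only region, and Ccr2 has no knockout-only region.

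The Ccr9 window held the strongest one-genotype region of the set. It lay 6.2 kb upstream of the Ccr9 start (chromosome 9, 123760808 to 123761189, mm10), outside every gene span in the expression files, and spanned 382 bases. Its −log10 q, the authors' caller's measure of significance, was 89.98 and 75.6 in the control lists, with a fold enrichment over local background of 15.5 and 13.3, and neither knockout list had a peak in it. By the lower of its −log10 q values it ranked 53rd of the 6458 control-only regions (the top 0.821%), whose median was 9.0. The next regions on either side were present in all 4 lists. At 4.2 kb upstream the −log10 q was 18.5 and 23.7 in control and 33.2 and 27.6 in knockout, and at 10.3 kb upstream it was 111 and 121 in control and 56.5 and 73.7 in knockout. Ccr9 was the receptor with the second lowest RNA level, so this difference in the lists stood beside a gene at 1.249 TPM or less in all 4 libraries. A weaker control-only region lay 32.9 kb upstream (−log10 q 9.21 and 20.8), nearer to the start of Lztfl1, and a knockout-only region lay in Fyco1, 9.2 kb past the Cxcr6 start (chromosome 9, 123815503 to 123815772, −log10 q 14.2 and 15.04 in the knockout lists). Regions 5.5 and 8.0 kb past the Cxcr6 start were present in all 4 lists. The −log10 q of the former was 35.45 and 30.8 in control and 9.1 and 10.5 in knockout. That of the latter was 53.2 and 40.8 in control and 9.67 and 10.2 in knockout.

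**Figure D4:**
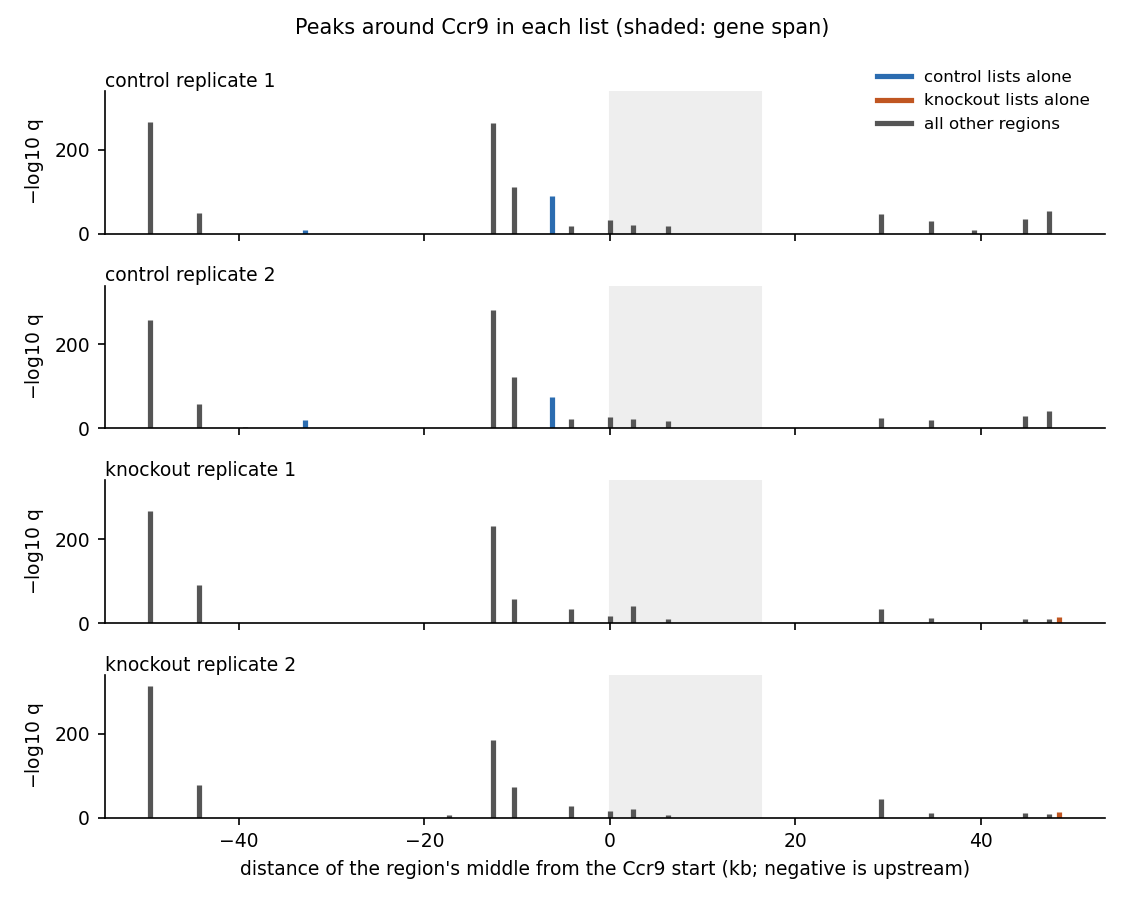
Height of each peak (−log10 q, vertical axis, as the authors' caller gave it) against the distance of its region's middle from the Ccr9 start in kb, in the 4 ATAC lists, with the gene span shaded. The blue line 6.2 kb upstream, at 89.98 and 75.6 in the control lists, is missing from both knockout lists, while its neighbours at 4.2 and 10.3 kb upstream appear in all 4.

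The Ccr7 window held 26 regions, the most of the 9, and 4 of the 12 control-only regions. These lay 29.4, 39.0, 43.7 and 48.1 kb downstream of the Ccr7 start, and the start of Tns4 was nearer than that of Ccr7 for all but the first. The strongest of them (chromosome 11, 99115895 to 99116186) had a −log10 q of 31.7 and 28.4. Of its 2 knockout-only regions, the one 13.3 kb downstream had a −log10 q of 8.11 and 7.85. The other lay 48.5 kb downstream (chromosome 11, 99106486 to 99106723, −log10 q 11.4 and 11.01), with 154 bases between it and the control-only region at 48.1 kb, so that region had a knockout peak beside it. At the Ccr7 start itself a region present in all 4 lists had a −log10 q of 139 and 153 in the control lists and 61.2 and 48.4 in the knockout lists. These heights describe peaks within their own lists and were not compared by a test.

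Around Ccr1 the one-genotype regions were all knockout-only. One lay inside the gene, 3.7 kb from its start (chromosome 9, 123964844 to 123965089, −log10 q 19.3 and 24.6, in the top 2.06% of the 8939 knockout-only regions), and the others were 10.7 kb and about 32 kb downstream of the start. Upstream of Cxcr2, 2.7 kb from its start, another knockout-only region stood in the top 2.39% (chromosome 1, 74151178 to 74151464, −log10 q 18.4 and 26.5). Farther upstream of Cxcr2, at 18.5 and 18.8 kb and nearer to the start of Rufy4, lay 2 control-only regions with −log10 q of 6.91 to 10.19. Ccr2 had a single control-only region, 29.7 kb downstream of its start (chromosome 9, 124131702 to 124131998, −log10 q 23.5 and 24.2). This region lay nearer to the start of another gene (10.3 kb). The control-only region near Cxcr4 (10.9 kb upstream, −log10 q 7.72 and 9.01) was below the median of its class, and so was the knockout-only one (34.2 kb upstream, 5.64 and 5.93). Cx3cr1 and Cxcr3 had control-only regions at 37.7 kb downstream and 33.3 kb upstream of their starts, each with −log10 q near 12 in both control lists, and the former lay nearer to the start of Xirp1 (7.0 kb). Cx3cr1 also had a knockout-only region 47.5 kb upstream, nearer to the start of Slc25a38 (−log10 q 8.65 and 12.7). Cxcr3 had knockout-only regions 17.2 kb downstream (5.9 and 6.8) and 20.5 kb upstream (4.96 and 11.01).

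Presence of a peak at the gene start did not divide by genotype for any of the 9. A peak within 500 bases of the start was present in all 4 lists for 6 of the 9 receptors (Ccr9, Ccr7, Cxcr4, Ccr1, Cx3cr1 and Cxcr3), against 55.5% of all genes and 85.5% of genes tested in RNA. At the Cxcr2 and Cxcr6 starts a peak was present in control replicate 1 alone, at −log10 q of 5.09 and 8.14. Ccr2, the second most abundant receptor, had no peak within 500 bases of its start in any list. Its nearest strong region, centred 1.3 kb inside the gene (chromosome 9, 124103241 to 124103692), was present in all 4 lists at −log10 q of 109, 98.95, 119 and 126. Cxcr3, the least abundant receptor, had a peak at its start in all 4 lists at −log10 q of 84.6 to 89.7. The order of RNA levels among the receptors was therefore not the order of peaks at their starts.

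Promoter sequence was matched in RefSeq (GRCm38.p6, the assembly behind mm10) for 8 of the 9 receptors. The 250 bases before the start are shown for 4 of them because they contrast a receptor beside the strongest control-only region (Ccr9), an abundant receptor with a start peak (Cxcr4), an abundant one without (Ccr2) and the only one of the 8 with a match to the TCF/LEF core CTTTGA (Cxcr6). Capitals mark matches on either strand to CTTTGA, to the Runx core TGTGGT, to the GATA core AGATAA or to the CSL core GTGGGAA, and no 2 matches overlap. The sequences run 5′ to 3′ on the gene's strand.
Ccr9, chr9:123766961-123767210, plus strand: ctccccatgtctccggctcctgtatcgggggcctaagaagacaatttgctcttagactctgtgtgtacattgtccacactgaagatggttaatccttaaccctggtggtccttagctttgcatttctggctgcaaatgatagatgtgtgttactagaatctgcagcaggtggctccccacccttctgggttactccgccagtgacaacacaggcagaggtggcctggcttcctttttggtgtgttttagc
Cxcr4, chr1:128592300-128592549, minus strand: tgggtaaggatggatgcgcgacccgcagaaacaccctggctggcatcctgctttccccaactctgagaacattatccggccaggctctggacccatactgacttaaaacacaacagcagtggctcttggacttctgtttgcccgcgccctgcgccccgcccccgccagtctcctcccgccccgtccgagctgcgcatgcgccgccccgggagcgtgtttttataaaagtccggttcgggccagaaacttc
Ccr2, chr9:124101933-124102182, plus strand: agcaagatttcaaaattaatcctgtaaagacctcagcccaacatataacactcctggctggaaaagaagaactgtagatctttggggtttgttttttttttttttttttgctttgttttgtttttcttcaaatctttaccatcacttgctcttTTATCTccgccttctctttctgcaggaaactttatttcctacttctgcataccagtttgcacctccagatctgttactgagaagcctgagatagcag
Cxcr6, chr9:123806227-123806476, plus strand: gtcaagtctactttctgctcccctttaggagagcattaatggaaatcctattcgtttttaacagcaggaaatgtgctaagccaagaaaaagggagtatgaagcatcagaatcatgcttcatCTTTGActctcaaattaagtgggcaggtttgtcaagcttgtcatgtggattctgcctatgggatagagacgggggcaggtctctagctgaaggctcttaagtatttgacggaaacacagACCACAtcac
The Cxcr6 stretch holds CTTTGA beginning 129 bases before the start, and a Runx core on the other strand beginning 10 bases before it. Ccr2 holds 1 GATA core on the other strand, and Ccr9 and Cxcr4 hold none of the 4 motifs. Runx cores also stood before Ccr1, Cx3cr1 and Cxcr3. Of 32851 RefSeq promoters of the same length, 13.83% hold the TCF/LEF core, 14.05% the Runx core, 9.99% the GATA core and 5.42% the CSL core. The base composition differed as well, with 61.2% G or C before Cxcr4, 50.4% before Ccr9, 43.6% before Cxcr6 and 37.2% before Ccr2. A match of letters is a description and not evidence of binding.

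Most tested ligands of the receptors fell. Of 16 tested genes on the ligand list 9 fell, 1 rose and 6 did not pass, with a median change of −1.07 against 0.09 over all tested genes, and the counts of falls and rises were the same without each library in turn. One of the falls, Ccl4, is not a classical ligand of the 9 receptors, and without it 8 of 15 fell, with a median change of −0.50. These counts stand beside 14.7% of all tested genes called lower and 25.2% higher. For the ligands of CXCR4, CCR9 and CCR7 the picture was mixed. Cxcl12, the CXCR4 ligand made by marrow stroma, rose from 238.8 and 234 TPM in control to 653 and 537 TPM in knockout, a change of 1.32 (limma adjusted p = 0.000668). The stromal list, which rose in the same libraries, holds no chemokine, and its part in this rise was not tested. Ccl25, the CCR9 ligand, was listed at 9.15 and 11.3 TPM in control against 8.22 and 11.3 TPM in knockout, which did not pass (limma adjusted p = 0.793). The CCR7 ligand genes Ccl19, Ccl21a, Ccl21b and Ccl21c were listed at 0 in all 4 libraries. The Ccl21 genes are near-identical copies, so their reads are hard to place.

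Several ligands of the myeloid receptors fell. Cxcl1, a CXCR2 ligand, fell from 36.7 and 35.2 TPM to 1.89 and 2.54 TPM (change −3.53), and Cxcl5, another, from 22.6 and 19.25 TPM to 4.18 and 2.23 TPM (−2.42). Cxcl2 was listed at 3.41 and 1.81 TPM in control and at 0 in both knockout libraries (limma adjusted p = 0.0102). The genes Ccl3, Ccl4 and Ccl5, of which CCL3 and CCL5 bind CCR1, had changes of −1.92, −2.46 and −2.09, and the CCR2 ligands Ccl2 and Ccl7 changes of −1.80 and −1.65. All of these named falls passed the limma test, with adjusted p of 0.000147 to 0.0102, and kept passing under each alternative in which they were tested. Mif, a cytokine that also binds CXCR4 and CXCR2, fell by 0.19. Cx3cl1, the CX3CR1 ligand, and Cxcl16, the CXCR6 ligand, did not pass, with changes of −0.16 and −0.50, and neither did the CCR1 ligands Ccl6 and Ccl9 or the CXCR2 ligand Ppbp. The CXCR3 ligands Cxcl9, Cxcl10 and Cxcl11 were too low to be tested.

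**Figure D5:**
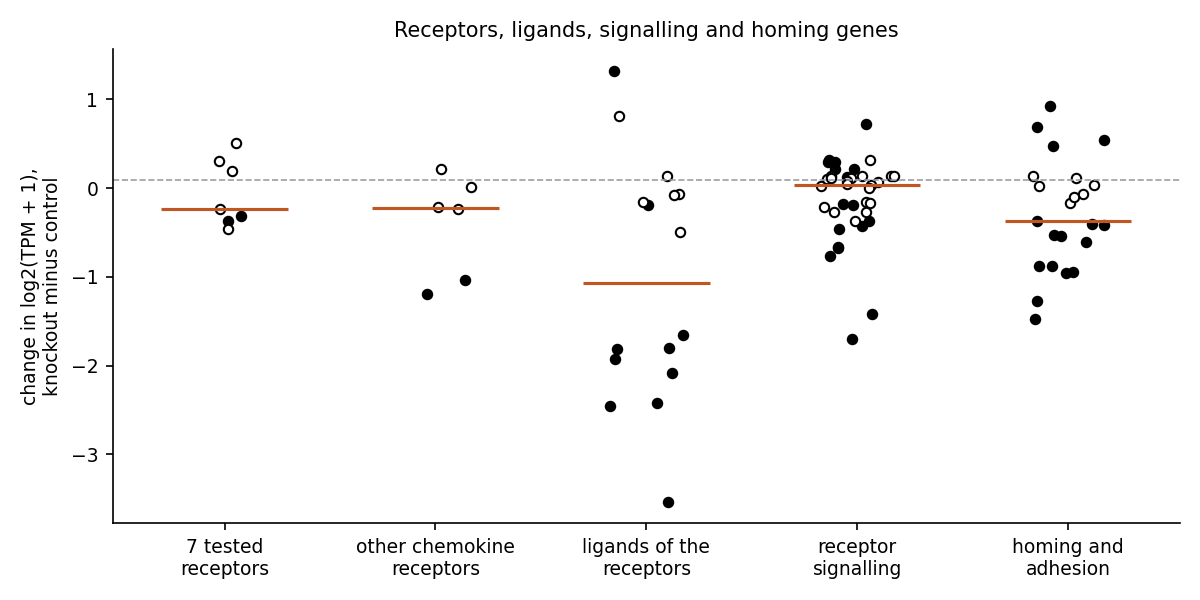
Change in log2(TPM + 1), knockout minus control, of each tested gene in 5 lists, with filled circles for genes that passed the limma test, an orange bar at each list's median and a dashed line at the median of all tested genes. The ligands spread from −3.53 (Cxcl1) to 1.32 (Cxcl12), while the 7 tested receptors lie between −0.46 and 0.51.

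Other chemokine receptors were mostly low. Of 15 on the list 6 could be tested, of which 2 fell and 4 did not pass, and 0 were called higher (0 also at an unadjusted p under 0.05, limma). Over all tested genes 39.8% were called, 14.7% lower and 25.2% higher, so 6 genes are too few to set this list apart. Cxcr5, the B-cell follicle receptor, fell from 3.04 and 2.76 TPM to 0.509 and 0.915 TPM (change −1.20, limma adjusted p = 0.0168). The call was lost without either control replicate or knockout replicate 1 (adjusted p = 0.0629 to 0.0774).

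Genes that relay or dampen receptor signals moved in both directions. Among the 37 that could be tested, 10 fell, 7 rose and 20 missed the threshold, with a median change of 0.03, where 39.8% of all tested genes were called, 14.7% lower and 25.2% higher. Taken in both directions together, the share called was near that of all genes. By direction it was not, since falls outnumbered rises in this list and rises outnumbered falls over all tested genes. Leaving out control replicate 1 left 5 falls, and control replicate 2 or knockout replicate 1 left 6, while the 7 rises dropped to between 0 and 3 when any 1 library was left out and to 1 after quantile normalization or median-ratio scaling. The changes of at least 1 in this list were those of Rgs1 and Rgs2, regulators of G-protein signalling. Rgs1 fell from 420 and 429 TPM to 129 and 129.7 TPM (change −1.71, limma adjusted p = 6.85e-05), and Rgs2 from 121 and 122 TPM to 42.9 and 47.3 TPM (−1.41, adjusted p = 0.000298). Their relatives went both ways, since Rgs18 and Rgs19, with changes of 0.29 and 0.31, were among the 7 rises, and Rgs3, Rgs10 and Rgs14 did not pass. On the list of homing and adhesion genes, falls outnumbered rises. Among 23 genes above the filter, 12 fell, 4 rose and 7 missed the threshold, beside the same 14.7% lower and 25.2% higher of all tested genes. The median change was −0.37, and the 4 rises became 2 without control replicate 1 or either knockout replicate. Itga4, the alpha-4 integrin chain that progenitors use to bind vessel walls and stroma, fell from 270.3 and 274 TPM to 114 and 110.2 TPM (−1.28, limma adjusted p = 0.000147). Gpr183, an oxysterol receptor that guides migrating lymphocytes, fell from 21.2 and 23.4 TPM to 6.60 and 8.20 TPM (−1.48, adjusted p = 0.00139). The losses of T-lineage marker RNA stood beside these falls, and their part was not tested.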

How the data were processed

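HISAT2, StringTie, Bowtie2, MACS2 and the build mm10 are named, without versions or order, per the submitters' processing notes. The deposited TPM and FPKM columns are the authors' values per library, and FPKM was used as an alternative. The deposited coverage column, an unscaled signal per base, gave a ratio to FPKM of 2.12 to 2.64 across libraries, which follows depth. Read counts were not used here. Each deposited peak list holds 1 library, with the authors' score, fold enrichment (a ratio), −log10 p and −log10 q. Control lists held 103009 and 105227 peaks outside the mitochondrial chromosome, and knockout lists 109380 and 111007. No source used here states the calling threshold, and the lowest −log10 q was 2.74 to 2.87.

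Log2(TPM + 1), computed from the deposited TPM with entries of a gene ID summed, was compared with limma 3.58.1 in R 4.3.3 (lmFit, eBayes with trend, genotype alone, mean TPM of at least 1, adjusted p under 0.05), after the code was tested on simulated data. Peaks sharing 1 base were merged into regions. Groups came from the sample titles. The receptors and lists were chosen with earlier results of these data known. Named genes were the receptors, Tcf7, Lef1, called pathway genes that changed by at least 1, the receptors' ligands, and the 3 nearest profiles of each called receptor. Of the pathway genes that meet this rule, 1 is not reported here. Some genes were mentioned beyond that rule. Fyco1, Ccr1l1, Kit, Cd44, Il2ra, Cd4, Cd8a and Cd8b1 were looked up as neighbours, copies or sort markers. Mif, further Rgs genes and single genes of the cell type marker lists (such as Ms4a3, F13a1 and Irf8) were looked up after their values were seen.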

Additional observations from a re-analysis of the deposited data

How the results depend on the processing

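The changes of the 9 receptors kept their direction under the alternatives tried, except for Cxcr6, whose change ran from −0.58 to 0.11 when 1 library was left out, and Cxcr3, at −0.21 to 0.18 (and 0.066 with a pseudocount of 0.1). Of the other named genes, neither of them called, Lef1 ran from −0.081 to 0.26 without 1 library and Ccl25 from −0.28 to 0.14 (0.070 without control replicate 2). Leaving out 1 library gave −0.42 to −0.21 for Cxcr4 (limma adjusted p = 0.0374 to 0.155) and −0.42 to −0.32 for Ccr2 (0.0313 to 0.0726). Cxcr4, at the same change of −0.32, missed the threshold when low genes were kept (adjusted p = 0.0720) and without the intensity trend (0.0996), which left 1 receptor called. Without 1 library, 0 to 2 receptors were called lower. The Ccr9 difference was −0.59 with a pseudocount of 0.1 and −0.21 with FPKM. All-gene counts without 1 library were 1088 to 1450 lower and 2005 to 2242 higher. The other chemokine receptors called lower numbered 0 to 2 without 1 library and 0 with a mean TPM of at least 5, where fewer genes were tested. Signalling genes called without 1 library numbered 5 to 9 lower and 0 to 3 higher, against 7 higher in all. Those higher numbered 3 without the filter, 1 after quantile normalization, 1 after median-ratio scaling, 4 with FPKM and 2 without the intensity trend, and homing genes called higher 2 to 3 without 1 library. With the replicate number as a block, Cxcr4 and Ccr2 stayed called and 4 signalling genes were called higher. Same-numbered libraries did not deviate together (r = 0.004 over 13228 genes), so the numbers are not taken as a pairing. In the receptor windows, 10 kb in place of 50 kb left 1 control-only and 5 knockout-only regions, and the gene spans alone 0 and 1, since they hold fewer regions. Without 1 library the windows held 13 to 16 control-only and 13 to 18 knockout-only regions, and the genome 8720 to 11227 and 12449 to 16567. ATAC depth is unknown, and RNA levels near 1 TPM limit what can be said of Ccr9 and Cxcr3.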
